A study of Mus musculus with 16 samples.

Results

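The regions described here carried both MyoD and c-Jun in proliferating mouse myoblasts, with no RUNX1 peak in the same cells and no MyoG peak after 24 hours of differentiation. They were found by merging all peaks of 4 deposited peak lists, 1 each for RUNX1, MyoD, c-Jun and MyoG, that overlapped by at least 1 bp on chromosomes 1 to 19 of the mouse build mm9. Merged regions were selected by the lists that met in them: MyoD and c-Jun present, RUNX1 and MyoG absent. Of 97753 merged regions, 2175 fulfilled this rule, or 2.22%. They held 2191 MyoD peaks, which are 4.85% of the MyoD list, and 2181 c-Jun peaks, which are 5.26% of the c-Jun list.

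The peaks came from chromatin immunoprecipitation followed by sequencing (ChIP-seq). Primary myoblasts were grown from the satellite cells (muscle stem cells) of the gastrocnemius of wild-type C57BL/6 mice aged 2 to 3 weeks. The ChIPs for MyoD, c-Jun and RUNX1 used proliferating cells on culture day 3. The MyoG ChIP used cells on day 4, after 24 hours in differentiation medium with horse serum and insulin. Each of the 4 ChIP groups had 2 samples, described as biological replicates. The 4 control groups also had 2 samples each, precipitated with mouse IgG for MyoD and for MyoG, rabbit IgG for c-Jun and rabbit non-immune serum for RUNX1.

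MyoD commits cells to the muscle lineage; it belongs to the basic helix-loop-helix family and pairs with E proteins on short E-box sequences. MyoG is of the same family, appears as myoblasts leave the cell cycle, and recognises the same kind of E-box. c-Jun is a subunit of AP-1, a factor tied to growth signals, and has been described as an opponent of MyoD in dividing myoblasts. RUNX1 is a Runt-domain factor that binds DNA together with Cbfb. Regions with MyoD and c-Jun but no later MyoG are sites where a muscle factor and a growth-linked factor meet without a peak of the differentiation factor. Separate precipitations do not show whether both factors sat on the same DNA molecule.

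Each list gave 1 position and 1 score per peak for 2 ChIP samples together. Spread between cultures could therefore not be computed, and the read depth behind a peak is unknown. Lowest and highest scores were 50.01 and 3233 in every list. A region without a MyoG peak is one where no MyoG peak reached that lowest score, not one where MyoG was shown to be absent. Scores are the authors' values and are compared within 1 list only. Errors below are standard deviations (SD) over 19 chromosomes or 95% Wilson intervals over regions. Both describe variation along the genome and counting error and not variation between animals. Presence and score come from the lists that chose the regions, so the values are a description and carry no test. MyoG was mapped at a later stage than the other factors, and factor and stage cannot be told apart.

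Most MyoD and c-Jun regions carried a further factor. Of 18276 regions with both, 2175 had neither RUNX1 nor MyoG, which is 11.9% (95% interval 11.4 to 12.4). Among the 6813 without RUNX1, 2175 had no MyoG peak (31.9%, 95% interval 30.8 to 33.0), against 4638 with one. MyoG was missing from 48.4% of all merged regions that held a RUNX1, MyoD or c-Jun peak. Among all merged regions with MyoD it was missing from 9888 of 43744 (22.6%). With RUNX1 present, 931 of 11463 MyoD and c-Jun regions lacked MyoG (8.12%, 95% interval 7.64 to 8.64). Seen from each partner, 25.7% of MyoD regions free of RUNX1 and MyoG held c-Jun, and 13.5% of c-Jun regions free of RUNX1 and MyoG held MyoD.

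Regions without MyoG had weak MyoD peaks, while their c-Jun peaks were close to those of regions with MyoG. The highest MyoD score per region ran from 50.11 to 2863 with a median of 112 in the 2175 regions, and from 50.11 to 3217 with a median of 314 in the 4638 regions that also held MyoG. The middle 50% of regions lay between 73.7 and 216 without MyoG and between 143 and 720 with it. On every one of the 19 chromosomes the median MyoD score was lower without MyoG: the chromosome medians averaged 113 ± 12.5 (SD, n = 19 chromosomes) without MyoG and 318 ± 33.2 with it. The 2 sets of chromosome medians did not overlap, at 95.2 to 147 without MyoG and 272 to 400 with it.

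The highest c-Jun score had a median of 157 without MyoG and 175 with MyoG. Chromosome medians averaged 160 ± 21.3 without MyoG and 173 ± 14.3 with it, and the median was lower without MyoG on 14 of 19 chromosomes and higher on 5. The 2 sets overlapped widely, from 132 to 219 without MyoG and from 142 to 192 with it. A like pattern held with RUNX1 present. MyoD had a median score of 104 in 931 such regions without MyoG and 530 in 10532 with all 4 factors. Their median c-Jun scores were 315 and 324.

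**Figure D1:**
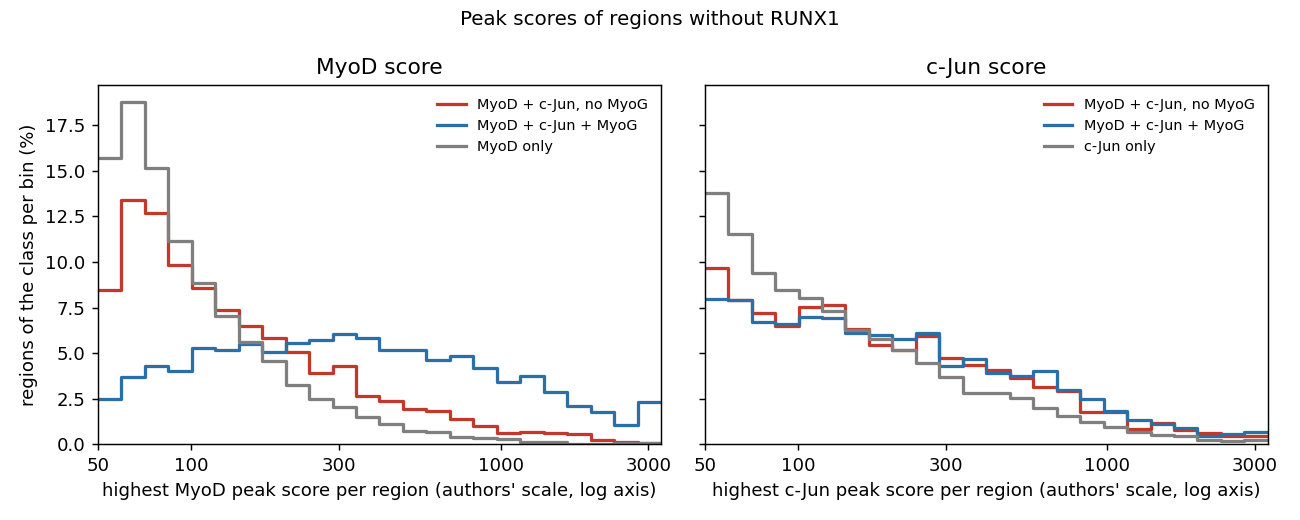
Distribution of the highest MyoD score (left) and c-Jun score (right) per region, on a log axis in the authors' units, as the percentage of regions of each class per bin. Regions without MyoG (red) lie nearer the MyoD-only regions (grey, left; c-Jun-only regions, right) in MyoD score, with medians of 112 and 85.1, and near the regions with MyoG (blue) in c-Jun score, with medians of 157 and 175.

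MyoD-only and c-Jun-only regions, with no peak of the other 3 lists, scored lower still. MyoD had a median score of 112 where c-Jun was present and 85.1 in 6301 MyoD-only regions. Likewise, c-Jun had a median of 157 where MyoD was present and 117 in 13905 c-Jun-only regions. Both orders held for the medians of 19 of 19 chromosomes. Joining peaks widens a region by construction: the median region measured 1148 bp with both factors, 697 bp with MyoD alone and 1068 bp with c-Jun alone.

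Set against its own list, the MyoD side ranked low and the c-Jun side near the middle. The median MyoD score of these regions lay above 34.4% of all MyoD peaks, and the median c-Jun score above 47.0% of all c-Jun peaks. MyoD exceeded its list median of 177 in 686 of the 2175 regions (31.5%), against 50.5% of all merged regions with MyoD. c-Jun exceeded its list median of 172.5 in 1015 regions (46.7%), against 50.2% of all merged regions with c-Jun. A score of 3100 or more, the value where many peaks of each list pile up, was reached by MyoD in 0 of the 2175 regions and in 80 of the 4638 with MyoG (1.72%). c-Jun reached it in 7 regions without MyoG (0.322%) and in 18 with MyoG (0.388%), nearly the same share. Regions of all 4 factors reached it more often, by MyoD in 682 of 10532 (6.48%) and by c-Jun in 210 (1.99%). A score of exactly 3100 was given to 796 of the 45201 entries in the MyoD list. In the c-Jun list it was given to 286 of 41480.

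The 2 scores sorted the 2175 regions into 4 kinds. In 826 regions (38.0% ± 4.62, SD over 19 chromosomes) neither factor exceeded its list median. In 663 (30.5% ± 4.22) c-Jun alone did, in 334 (15.4% ± 2.92) MyoD alone, and in 352 (16.2% ± 3.60) both. With MyoG present the order turned: both exceeded their medians in 37.1% ± 2.71, MyoD alone in 31.4% ± 3.34, c-Jun alone in 13.4% ± 2.81 and neither in 18.1% ± 2.98. With RUNX1 but no MyoG, c-Jun alone exceeded its median in 443 of 931 regions (47.6% ± 7.92) and both did in 205. With all 4 factors, both exceeded their medians in 5773 of 10532 regions (54.8% ± 2.96) and neither in 949 (9.01% ± 1.35).

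Within the 2175 regions the score of one factor changed little with that of the other. In 4 equal groups from the weakest to the strongest MyoD, the median c-Jun score was 145, 139, 165 and 185. The middle 50% of c-Jun scores reached from 75.7 to 313 in the weakest group and from 98.3 to 402 in the strongest, so the groups overlapped over most of their range. In 4 equal groups from the weakest to the strongest c-Jun, the median MyoD score was 98.6, 112, 122 and 119.

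The share of regions without MyoG followed the MyoD score and hardly the c-Jun score. Among MyoD and c-Jun regions without RUNX1, MyoG was missing from 571 of 923 (61.9%, 95% interval 58.7 to 64.9) where MyoD scored 50 to 75. This share was 55.1% for scores of 75 to 100, 41.8% for 100 to 150, 34.6% for 150 to 200, 26.5% for 200 to 300, 19.8% for 300 to 500 and 13.1% for 500 to 1000. It was 63 of 844 (7.46%, 95% interval 5.88 to 9.44) from 1000 upward. Over the same 8 classes of c-Jun score, the share lay between 28.5% and 34.1%. It was 34.1% (95% interval 31.5 to 36.7) in the lowest class and 29.3% (95% interval 25.2 to 33.8) in the highest.

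At a given MyoD score, the shares with strong and with weak c-Jun had overlapping intervals in 6 of 8 classes, and the other 2 classes went opposite ways. The share for c-Jun scores from 300 upward was higher than for scores below 100 in 7 of 8 MyoD classes, by 1.85 to 12.2 percentage points, and the 2 intervals were apart in 1 of those 7. In that class, MyoD 100 to 150, it was 49.6% (95% interval 43.2 to 55.9) with strong c-Jun and 37.3% (95% interval 32.3 to 42.7) with weak c-Jun. The order turned for MyoD from 1000 upward, where 26 of 417 regions with strong c-Jun (6.24%, 95% interval 4.29 to 8.98) and 23 of 150 with weak c-Jun (15.3%, 95% interval 10.4 to 22.0) lacked MyoG.

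**Figure D2:**
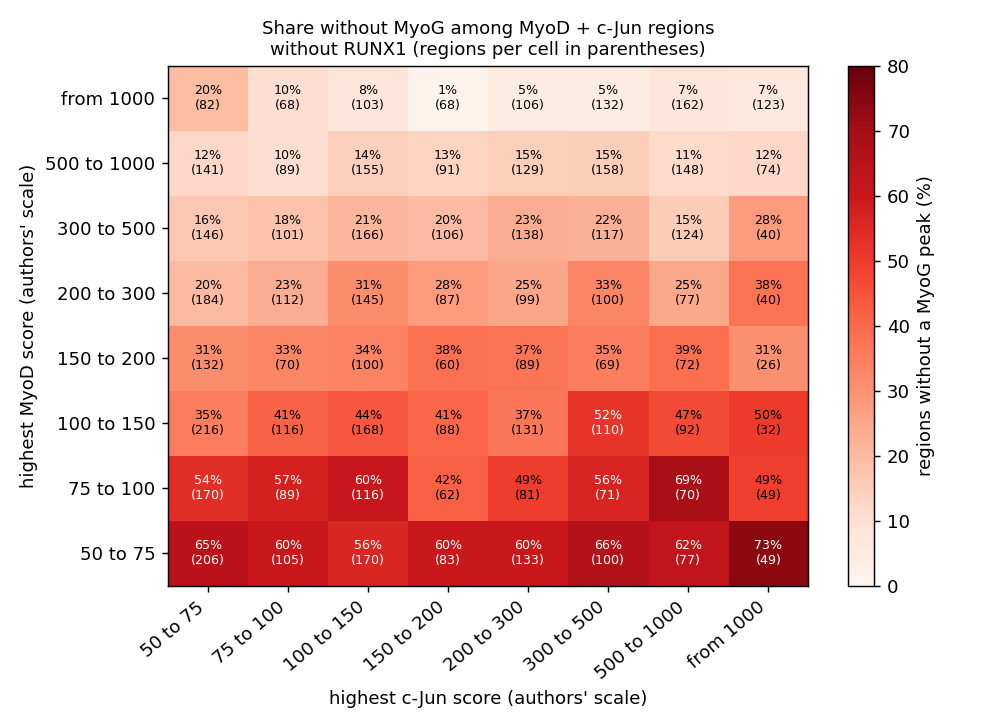
Share of regions without a MyoG peak among 6813 MyoD and c-Jun regions without RUNX1, by class of the highest MyoD score (rows) and the highest c-Jun score (columns), in the authors' units; the number in parentheses counts the regions of a cell. The shade changes from bottom to top, from 61.9% in the lowest MyoD class to 7.46% in the highest. From left to right the cells of a row vary without a steady order, for example between 41.9% and 68.6% for MyoD 75 to 100 and between 1.47% and 19.5% from 1000 upward.

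Where MyoG was present, its score also followed the MyoD class. Its median was 131 where MyoD scored 50 to 75, with the lowest 10% of regions under 60.4. For MyoD from 1000 upward the MyoG median was 697, with the lowest 10% under 125. Weak MyoD sites with MyoG thus had MyoG scores nearer the lowest score of the list than strong sites with MyoG.

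All MyoD regions without RUNX1 were also compared by the presence of c-Jun. With c-Jun present, the share without MyoG was higher than with c-Jun absent in 7 of 8 MyoD classes, with intervals apart in 5. The largest gap was in the class of 75 to 100, at 55.1% (95% interval 51.4 to 58.7) with c-Jun and 41.2% (95% interval 39.5 to 42.9) without. From 1000 upward the shares were 7.46% with c-Jun and 7.95% without, with overlapping intervals. Over all scores the order was the other way round, 31.9% with c-Jun and 34.3% (95% interval 33.6 to 35.0) without.

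Peaks were merged by overlap, so the MyoD and c-Jun centres of a region lay close together by construction. The nearest MyoD and c-Jun centres were a median of 104.5 bp apart, with 25% of the regions under 46 bp and 25% over 227 bp. Centres lay within 150 bp in 1380 of 2175 regions (63.4% ± 4.94), against 60.0% of all regions with MyoD and c-Jun. Within 50 bp there were 587 regions (27.0% ± 4.94), and 177 (8.14%) had centres over 500 bp apart. No side was preferred: the c-Jun centre had the higher coordinate in 50.4% of the regions.

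Peaks of c-Jun were broader than those of MyoD, with median widths of 1106 bp and 772 bp. The MyoD peak lay wholly inside the c-Jun peak in 1370 regions (63.0%), the reverse held in 25 (1.15%), and the peaks were staggered in 780 (35.9%). A MyoD peak inside the c-Jun peak was also the most frequent arrangement in the other MyoD and c-Jun classes. Its share was 56.9% with MyoG and no RUNX1, 66.6% with RUNX1 and no MyoG, and 55.5% with all 4 factors. In the same order, peaks were staggered in 39.3%, 32.9% and 39.7%. Nearly all regions were simple pairs: 15 held more than 1 MyoD peak and 5 more than 1 c-Jun peak.

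Among regions without RUNX1, the centres were nearer with MyoG present, by a small margin. The median distance was 104.5 bp without MyoG and 89 bp with it, a difference of 15.5 bp against an SD of 16.9 bp over chromosomes, and it was larger without MyoG on 16 of 19 chromosomes. The distance also varied with the MyoD score. In the class of 50 to 75 the distance was 120 bp without MyoG and 131 bp with it, and from 1000 upward 87.5 bp without MyoG and 78.5 bp with it. The distance was larger without MyoG in 6 of 8 classes, by 2.5 to 22.5 bp. With RUNX1 and no MyoG the median distance was 143 bp, in regions that were also wider, at 1349 bp. With all 4 factors it was 122 bp, in regions with a median width of 1547 bp.

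**Figure D3:**
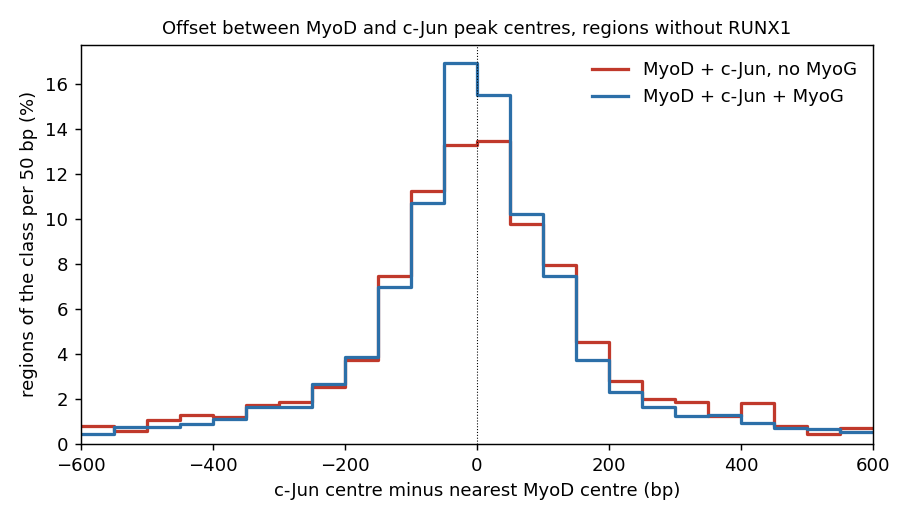
Offset of the c-Jun centre from the nearest MyoD centre, in bp, as the percentage of regions of each class per 50 bp, for MyoD and c-Jun regions without RUNX1. Both classes centre on 0 and fall away evenly to both sides, and the regions without MyoG (red) are fewer in the 2 middle bins, with 27.0% of centres within 50 bp against 32.6% with MyoG (blue).

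The 2175 regions lay about as far from other MyoG and RUNX1 peaks as regions with MyoD or c-Jun alone. The nearest MyoG peak was a median of 10869 bp away, against 10671 bp for MyoD-only and 9523 bp for c-Jun-only regions. Chromosome medians of this gap had an SD of 2383 bp in the 2175 regions, a spread between chromosomes and not of these differences. A MyoG peak lay within 10 kb of 1050 regions (48.3% ± 4.89), against 53.7% of all merged regions without MyoG. The share was 48.3% for MyoD-only regions (95% interval 47.1 to 49.6) and 51.2% for c-Jun-only regions (95% interval 50.40 to 52.06). The interval of the 2175 regions, 46.18 to 50.38, overlapped that of MyoD-only regions and lay just below that of c-Jun-only regions. The nearest RUNX1 peak was a median of 13897 bp away, against 14517 bp for MyoD-only regions, 12981 bp for c-Jun-only regions and 9934.5 bp for MyoD and c-Jun regions with MyoG. RUNX1 lay within 10 kb of 920 regions (42.3% ± 5.92), against 49.2% of all merged regions without RUNX1.

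MyoG peaks just outside were fewer than around single peaks. A MyoG peak lay within 1 kb of 156 regions (7.17%, 95% interval 6.16 to 8.33), against 9.08% (95% interval 8.39 to 9.81) of MyoD-only and 9.51% (95% interval 9.04 to 10.0) of c-Jun-only regions. A RUNX1 peak lay within 1 kb of 152 (6.99%, 95% interval 5.99 to 8.14), with intervals overlapping those of MyoD-only (8.08%) and c-Jun-only regions (7.92%). Region width differed between these classes, as given above, and its part in these shares was not tested.

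By median gap, the group of regions with the strongest MyoD lay farthest from a MyoG peak. In the 4 equal groups from the weakest to the strongest MyoD, the median gap to a MyoG peak was 8752, 10939.5, 10478 and 13381.5 bp. The median gap to a RUNX1 peak was 10818, 16155.5, 12458 and 17038 bp. For MyoG and for RUNX1 the middle groups had no steady order, and no spread was computed for these medians. In the 4 groups by c-Jun score the median gap to MyoG lay between 10385.5 and 11143 bp. In 95 regions (4.37%, 95% interval 3.59 to 5.31) neither RUNX1 nor MyoG had a peak within 100 kb, compared with 6.22% (95% interval 5.65 to 6.84) of MyoD-only and 3.45% (95% interval 3.16 to 3.77) of c-Jun-only regions. These 95 lay on 18 chromosomes. Their median MyoD score was 150 (middle 50% from 91.5 to 261), against 110 (73.3 to 214) in the other 2080. Their median c-Jun score was 136 (92.8 to 313), against 158 (84.5 to 349).

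**Figure D4:**
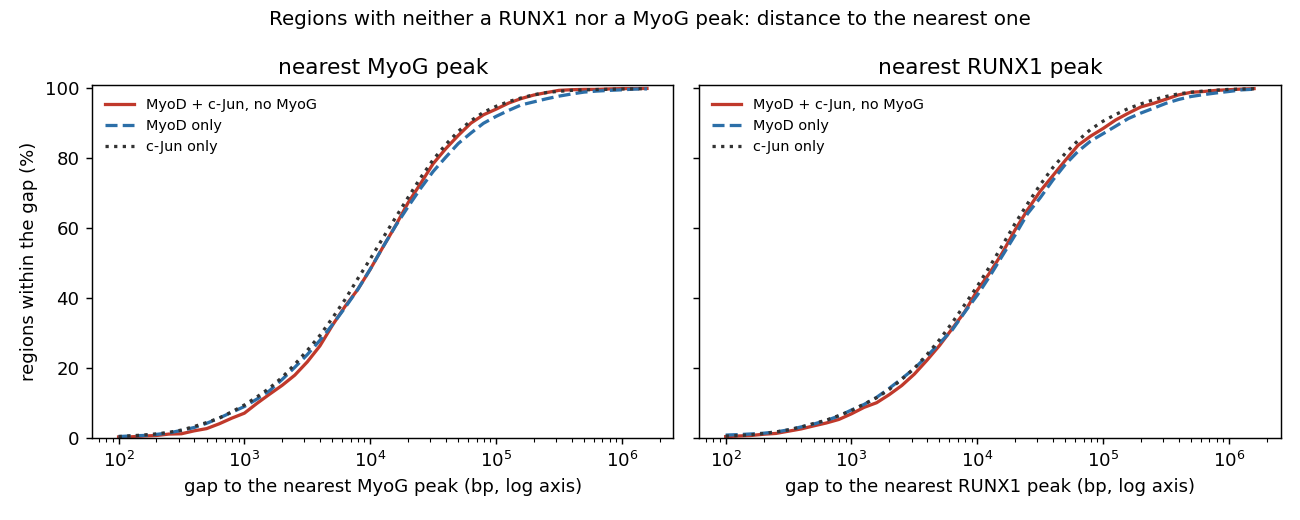
Cumulative percentage of regions within a given gap of the nearest MyoG peak (left) and RUNX1 peak (right), in bp on a log axis, for the 3 kinds of region with neither factor. The curves run close together, with 48.3% of the MyoD and c-Jun regions, 48.3% of MyoD-only and 51.2% of c-Jun-only regions within 10 kb of a MyoG peak.

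The region next to a MyoD and c-Jun region held c-Jun more often without MyoG than with it. The nearest other region held c-Jun in 1099 cases (50.5%, 95% interval 48.4 to 52.6), compared with 44.9% (95% interval 43.4 to 46.3) for MyoD and c-Jun regions with MyoG. It was 45.2% (95% interval 44.0 to 46.5) for MyoD-only regions. For c-Jun-only regions it was 47.8% (95% interval 47.0 to 48.7), which overlaps the interval of the regions with both factors. Of all regions 41.9% held c-Jun. The nearest other region held MyoG in 1063 cases (48.9%, 95% interval 46.8 to 51.0), against 60.5% (95% interval 59.0 to 61.9) beside regions with MyoG. This share was 51.7% beside MyoD-only and 52.2% beside c-Jun-only regions. Of all regions 59.6% held MyoG. By class, the most frequent neighbour was a c-Jun-only region, in 467 cases (21.5%), a class that makes up 14.2% of all regions. A c-Jun-only region was also nearest to 18.1% of MyoD-only regions, to 2643 of 13905 c-Jun-only regions and to 15.3% of MyoD and c-Jun regions with MyoG. MyoD was present in 45.8% of neighbours and in 44.7% of all regions.

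From these regions, a region of all 4 factors was a median of 60621 bp away, against 61738 bp for MyoD-only and 55570 bp for c-Jun-only regions. The nearest region of the same kind was a median of 256086 bp away. This gap depends on how many regions a class holds. It was 88016 bp for 6301 MyoD-only, 34401 bp for 13905 c-Jun-only and 536319 bp for 931 regions with RUNX1 and no MyoG. Among the 100 kb windows of the genome, 1973 held any of the 2175 regions: 1789 held 1, 167 held 2, 16 held 3 and 1 held 4. Window counts are not given for other classes. This last window, chr3:32300001-32400000, had 15 merged regions in all, with 11 MyoD, 7 c-Jun, 8 MyoG and 7 RUNX1 peaks. Its 4 MyoD and c-Jun regions had weak MyoD peaks with scores from 69.0 to 82.5 and c-Jun scores from 56.5 to 385.

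Every chromosome had such regions, from 51 of 2967 merged regions on chromosome 19 to 183 of 7085 on chromosome 1. As a share of all merged regions of a chromosome, they averaged 2.25% ± 0.428 (SD, n = 19 chromosomes). This share was lowest on chromosome 11, at 1.53%, and highest on chromosome 13, at 3.08%. Among MyoD and c-Jun regions without RUNX1, the share without MyoG averaged 31.8% ± 2.89 (SD, n = 19 chromosomes). It was lowest on chromosome 2, at 27.3% (95% interval 23.6 to 31.2), and highest on chromosome 13, at 38.9% (95% interval 33.9 to 44.1). Chromosome 13 also had the highest median MyoD score of these regions, 147.

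**Figure D5:**
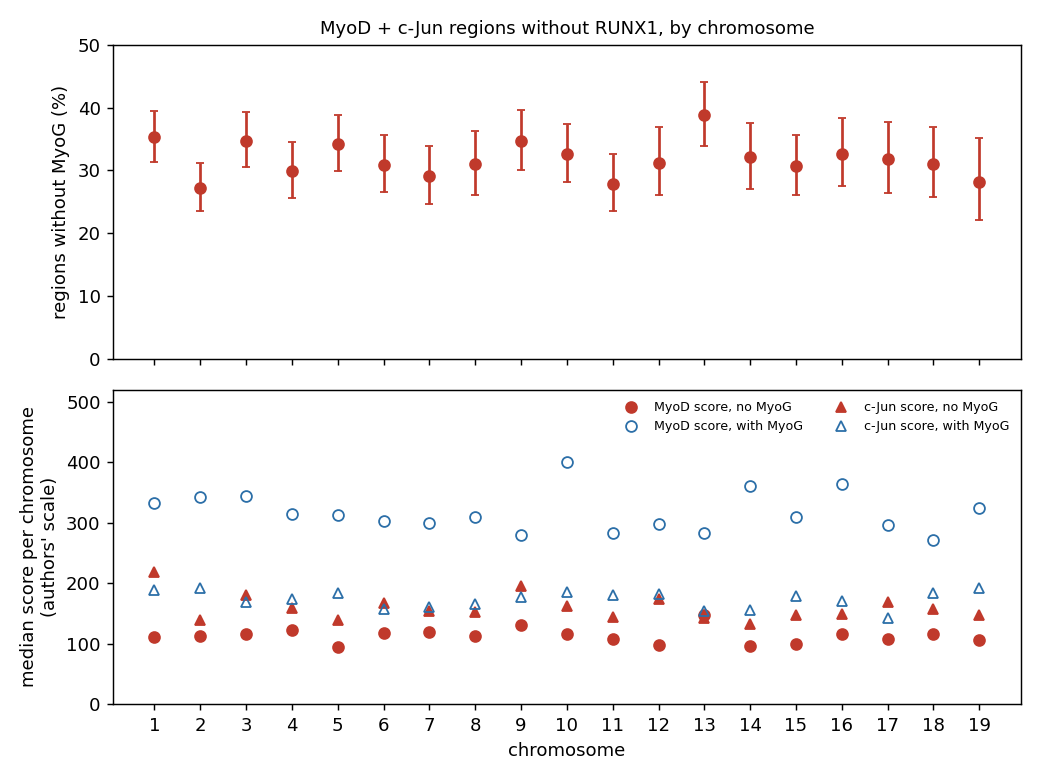
Top: percentage of MyoD and c-Jun regions without RUNX1 that lack MyoG, by chromosome, with 95% Wilson intervals, between 27.3% and 38.9%. Bottom: median MyoD score (circles) and c-Jun score (triangles) per chromosome in the authors' units, in regions without MyoG (red, filled) and with MyoG (blue, open); the 2 sets of circles are apart on every chromosome and the 2 sets of triangles mix.

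Individual regions with strong peaks of both factors were named by the worse of their 2 ranks among the 2175. The first, chr1:165490705-165493294, had a MyoD score of 1697 and a c-Jun score of 2976, ranks 18 and 9. Its nearest MyoG peak was 104646 bp away, but a RUNX1 peak lay 526 bp from its edge. The second, chr16:47842320-47844217, had a MyoD score of 1370 and a c-Jun score of 3184, with gaps of 83420 bp to MyoG and 361486 bp to RUNX1. The third, chr10:107099127-107100809, had scores of 1421 for MyoD and 1835 for c-Jun. Both MyoG and RUNX1 were more than 10 kb away in 6 of the first 10 regions, and in 925 of all 2175 (42.5%).

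Regions 4 to 9 in this order were chr9:97535372-97536623, chr13:89809052-89811384, chr3:121306460-121308305, chr19:30998182-30999607, chr9:83239988-83241944 and chr4:11462558-11464411. Their MyoD scores lay between 682 and 1427 and their c-Jun scores between 1120 and 2187. The tightest pair among them was the region on chromosome 19, with centres 7.5 bp apart. The region chr9:83239988-83241944 had a MyoG peak 1002 bp away.

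Some regions paired a strong peak of one factor with a peak of the other near the lowest score. On the MyoD side, chr11:94628110-94629159 had a MyoD score of 1196 with a c-Jun score of 51.4, and chr15:27130969-27131878 had 1821 with 53. The third, chr2:77754223-77766703, was 12481 bp wide, the width of its 1 MyoD peak, with scores of 2224 for MyoD and 53.2 for c-Jun. On the c-Jun side, chr13:20524567-20525832 had a MyoD score of 52.5 with the highest c-Jun score of all 2175 regions, 3228, and chr8:81673934-81675499 had 53.0 with 1975.

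At the edge of the rule, the scores of regions without and with MyoG overlapped. The 5 regions just inside had a MyoG peak 49 to 91 bp from their edge, with MyoD scores from 73.3 to 116 and c-Jun scores from 147 to 733. The 5 just outside, in which a MyoG peak overlapped a MyoD or c-Jun peak by 18 to 65 bp, had MyoD scores from 63.9 to 718, c-Jun scores from 83.6 to 680 and MyoG scores from 54.8 to 120. Few regions stood so near the edge: 8 of the 2175 had a MyoG peak within 100 bp, and 6 of 4638 regions with MyoG overlapped it by 100 bp or less.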

How the data were processed

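The files are 4 peak lists deposited by the authors on mm9, per the submitters' processing notes, which also name CASAVA 1.7.0 and 1.8.2 and Bowtie. Peak names begin with MACS. Each deposited peak has 1 score, for which no definition is given, nor for the caller's settings, the control used or the joining of replicates. MyoG was taken to be the list left once the other 3 were matched by name. Control samples appear in no list.

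Peaks of chromosomes 1 to 19 were merged at 1 bp of overlap and regions classed by the lists they held; the highest score per list represents a region. Distances use the nearest pair of MyoD and c-Jun centres, and gaps run from the region's edge. Coordinates are 1-based. The functions were tested on simulated data. The members, the score classes and the rules for named regions were chosen with earlier results of these data known. The first 10 regions by the worse of 2 ranks, 3 of each opposed kind, the window with most members and 5 on each side of the rule are named; those on chromosome 18 are counted but not named. Of 5 windows the rule asked for, 16 were tied behind the first and are given as a count. Sequence, motifs and genes near the regions were not analysed here. Alternatives were a stricter overlap, centres within 150 bp, margins of 1 and 10 kb around a region, a score of 100 or more, chromosome X, and, added afterwards, the removal of regions wider than 4 kb or at a score of 3100 or more. Tables were handled with pandas 2.3.3 and numpy 2.4.6 in Python 3.11.15, and figures drawn in matplotlib 3.10.9; scipy 1.17.1 gave the intervals.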

Additional observations from a re-analysis of the deposited data

Results flagged for a closer look

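Chromosome X lay outside the rule and entered no comparison above. It held 30 regions with MyoD and c-Jun and neither RUNX1 nor MyoG, and 92 with MyoG, so that 24.6% (95% interval 17.8 to 32.9) lacked MyoG. Median MyoD scores were 111 without MyoG and 310 with it. Median c-Jun scores were 136 without MyoG and 163 with it.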

How the results depend on the processing

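Of 54 values (6 results under 9 alternatives), 41 stayed within 1.5 times the count, the 95% interval of the share or the SD over chromosomes of the difference, 13 moved and 0 changed sign. The number of regions was 1380 with centres within 150 bp, 925 without RUNX1 or MyoG within 10 kb and 872 with MyoD and c-Jun scores of 100 or more; each of these leaves fewer regions by construction. In the same order, the share without MyoG among regions without RUNX1 was 30.4%, 25.9% and 23.4%, and the share of MyoD and c-Jun regions with neither was 12.6%, 5.06% and 7.25%. This last share was 10.6% with a margin of 1 kb, 13.1% with all 4 lists at 100 or more and 12.5% without regions at 3100 or more. With either margin, a region counted as having RUNX1 or MyoG if a peak of that factor lay anywhere within the margin. The groups with and without MyoG therefore differed from those above. The difference in median MyoD score, without minus with MyoG, was -202 and lay between -293 (all lists at 100 or more) and -164; that in median c-Jun score lay between -32.5 and -8.79, and that in centre distance between 6 and 21 bp. No paired analysis was possible because each list gives its 2 samples as 1 set of peaks; for that reason no replicate could be left out either. The alternatives for motifs and transcription starts were not run, since no sequence or annotation of mm9 was used here. Depth is unknown, so a missing peak does not show that a factor was absent.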

Other observations

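A few regions stood out in position or form, and were singled out after their values were seen. The region chr3:111577734-111578707 was the one farthest from a MyoG peak, at 1523099 bp, and lay about as far from RUNX1, at 1523444 bp. Its MyoD score was 832, its c-Jun score 131, and its centres were 13.5 bp apart. The region chr1:195344762-195349066 held 3 MyoD and 3 c-Jun peaks along 4305 bp, with highest scores of 394 for MyoD and 711 for c-Jun. It and the region of 12481 bp on chromosome 2 were the only 2 of the 2175 wider than 4 kb.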
